A study of Drosophila melanogaster with 2 samples.

Results

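Far intronic peaks of the autosomes are the ChIP-seq peaks of the zinc finger protein CG17801 whose summit lay inside an annotated gene, in no annotated exon and more than 1500 bp from the nearest annotated transcription start site (TSS). They numbered 798 of the 6723 peaks in the list that the authors thresholded by IDR (irreproducible discovery rate), a share of 11.9% with a 95% Wilson interval of 11.1% to 12.7%. The chromatin came from ovaries of adult Drosophila melanogaster females of unknown age, from 1 transgenic line with stable expression of CG17801 that carries GFP at the C-terminal end, and the tagged protein was precipitated through the GFP. There were 2 biological replicates of this 1 group, which the labels number 1 and 3, with no other genotype or treatment. A list of 30000 peaks stands for each replicate and another of 30000 for both pooled. The lists hold no read totals and no expression values, so depth is unknown and the labelled tissue could not be checked against its markers.

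CG17801 belongs to the ZAD family, zinc finger proteins with a zinc finger-associated domain at the N terminus, a group that has expanded in insects and through which members can pair with each other. Many ZAD proteins bind at promoters or at insulators. Introns of flies, above all the long first introns of regulatory genes, hold many enhancers, stretches that transcription factors bind to raise or lower the activity of a promoter some distance away. A ChIP peak shows where the protein or its partners sat on chromatin, and not whether the gene around it was active.

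The DNA under the strongest far intronic peaks is shown first, since the motif results below refer to it. Each line holds 101 bases centred on a summit, on the plus strand of the Release 6 genome (dm6), and capitals mark TATAAA or its reverse complement TTTATA, the 1 motif of the panel that was more frequent at these summits than beside them. The first 5 are from the strongest pair of each of 2L, 3L and 3R, and the next 3 are further strong peaks that hold the motif within these bases.
tai, chr2L:9205193-9205293: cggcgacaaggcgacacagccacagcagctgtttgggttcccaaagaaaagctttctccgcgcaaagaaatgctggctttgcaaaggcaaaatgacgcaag
spen, chr2L:166693-166793: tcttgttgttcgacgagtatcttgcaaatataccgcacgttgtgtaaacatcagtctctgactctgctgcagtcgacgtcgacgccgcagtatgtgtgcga
CG32486, chr3L:3060762-3060862: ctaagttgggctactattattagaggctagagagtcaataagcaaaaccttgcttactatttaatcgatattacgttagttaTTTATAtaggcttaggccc
Trl, chr3L:14759471-14759571: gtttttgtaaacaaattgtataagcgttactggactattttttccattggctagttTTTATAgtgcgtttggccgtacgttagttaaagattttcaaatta
tara, chr3R:16236909-16237009: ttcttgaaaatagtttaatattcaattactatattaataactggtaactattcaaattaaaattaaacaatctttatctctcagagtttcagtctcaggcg
Tet, chr3L:2805321-2805421: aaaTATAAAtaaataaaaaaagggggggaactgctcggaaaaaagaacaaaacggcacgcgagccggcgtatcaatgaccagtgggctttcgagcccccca
Kdm2, chr3R:9057496-9057596: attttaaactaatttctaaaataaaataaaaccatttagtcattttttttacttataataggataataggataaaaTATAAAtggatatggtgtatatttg
cic, chr3R:20261559-20261659: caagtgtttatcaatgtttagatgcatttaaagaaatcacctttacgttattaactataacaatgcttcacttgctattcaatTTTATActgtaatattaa

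A second set carries CACAGTG or its reverse complement CACTGTG, in capitals, a word picked out after its values had been seen. These are the strongest far intronic peaks of 2L, 3L and 3R with the word within 50 bp of the summit. They lie in introns of nmo, which encodes Nemo kinase, of loco, a regulator of G protein signalling, of sim, a transcription factor of the midline, of gpp, the histone H3 methyltransferase Grappa, and of fru, the zinc finger transcription factor Fruitless.
nmo, chr3L:8024851-8024951: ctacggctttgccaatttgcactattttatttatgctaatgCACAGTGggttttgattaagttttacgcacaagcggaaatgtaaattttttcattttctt
loco, chr3R:22624943-22625043: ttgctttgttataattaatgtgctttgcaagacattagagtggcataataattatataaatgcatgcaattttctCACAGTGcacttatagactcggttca
sim, chr3R:13066776-13066876: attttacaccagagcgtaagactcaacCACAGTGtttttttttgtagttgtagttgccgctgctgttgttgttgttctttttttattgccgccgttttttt
gpp, chr3R:6424106-6424206: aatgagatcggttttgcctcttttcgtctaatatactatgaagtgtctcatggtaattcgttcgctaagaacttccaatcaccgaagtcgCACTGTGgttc
fru, chr3R:18456367-18456467: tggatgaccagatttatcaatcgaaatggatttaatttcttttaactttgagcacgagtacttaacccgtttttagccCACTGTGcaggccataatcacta

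Far intronic peaks were found in both replicates, at modest strength. The IDR list was made from the same replicates, and each replicate list is long, so a high share follows largely from that selection. Of the 798 peaks, 759 had a summit within 100 bp in each replicate list, which is 95.1% with a Wilson interval of 93.4% to 96.4%, beside 93.3% of all 6723 IDR peaks. Replicate 3 held 98.6% of them and replicate 1 held 96.4%. A further 28 were in replicate 3 alone, 10 in replicate 1 alone and 1 in neither. Support in both replicates was higher than that of the 706 intronic peaks nearer to a TSS, between 250 and 1500 bp away (92.1%, two-sided Fisher's exact test adjusted over 5 classes by Benjamini-Hochberg, adjusted p = 0.0477), and than that of exonic peaks (90.2%, exact adjusted p = 0.0220). It was not separable from that of promoter peaks, which lie within 250 bp of a TSS (93.1%), intergenic peaks (92.5%, exact adjusted p = 0.0653 for both) or intronic peaks of the X chromosome at any distance (95.6%, exact adjusted p = 0.702). With 50 or 250 bp in place of 100 bp, 0 of the 5 classes differed by the same test. Such p-values treat peaks as the units and rest on 1 pair of replicates.

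Their ranks in the replicate lists ran together, with Spearman's rho of 0.60 over the 759 peaks, a description across peaks that share libraries. Both replicates placed 500 of the 798, or 62.7%, within their own strongest 6723 peaks. The authors' signal value, whose scale is not stated, had a median of 168 in far intronic peaks (quartiles 135 and 248), against 184 in near intronic, 195 in X intronic and 181 in promoter peaks. Far intronic peaks made up 98 of the strongest 1000 IDR peaks and 3 of the strongest 100. The same rule applied to the strongest 6723 peaks of each replicate alone gave 789 in replicate 1 and 797 in replicate 3.

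**Figure D1:**
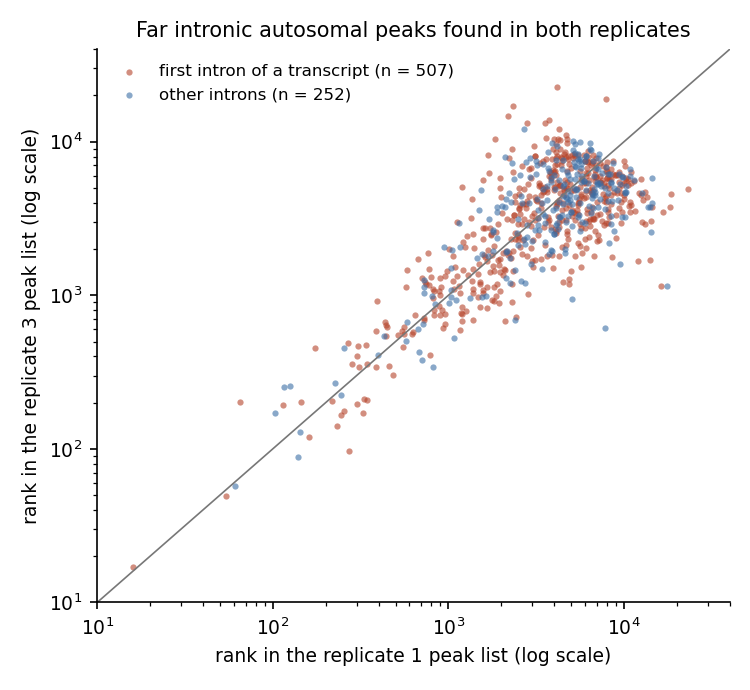
Rank of each far intronic peak in the replicate 1 list (x axis) and the replicate 3 list (y axis), both on log scales, for the 759 peaks found in both. Red points lie in the first intron of a transcript and blue points in other introns, and the line marks equal ranks. The strongest peaks lie close to the line and the spread widens among the weaker ones.

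Fewer of the candidate peaks that meet the rule were kept than of other candidates. The pooled list held 6682 peaks that meet the rule, and the IDR list kept 798 of these, or 11.9% (Wilson interval 11.2% to 12.7%), beside 22.4% of all 30000 pooled peaks. The other autosomal pooled peaks were kept at 25.6%, a difference that passed Fisher's exact test (two-sided, p = 2.69e-127). By class the kept share was 39.2% of promoter, 20.7% of X intronic, 19.4% of near intronic, 13.1% of intergenic and 9.01% of exonic peaks. The IDR list equals the strongest 6723 pooled peaks, so these shares describe how strong the peaks of each class were.

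The strongest far intronic peak lay in CG12769 on 2R, with its summit at 8061007, in a first intron of 7908 bp and 2456 bp from the nearest TSS. Its signal was 865 in the replicate 1 list and 1198 in the replicate 3 list, where it ranked 16 and 17. CG32486 held the next, in a first intron of 12037 bp, with ranks 54 and 49 in replicates 1 and 3. Trl, which encodes GAGA factor, a DNA-binding protein that opens chromatin at many promoters and enhancers, held the next (ranks 61 and 57). That Trl summit was 1528 bp from a TSS, just past the distance limit. A peak in tara, a cofactor linked to trithorax group genes and the cell cycle, had ranks 65 and 202. Each of these 4 ranked within the strongest 202 peaks of both replicates.

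The 20 strongest peaks found in both replicates lay in genes of varied function, and no kind of gene was counted or tested among them. Tet, the fly member of the TET dioxygenase family, held a peak 15732 bp from a TSS that ranked 160 in replicate 1 and 120 in replicate 3. Kdm2, a histone demethylase, ranked 103 and 171 in the same order. The repressor gene cic, Capicua, which acts below receptor tyrosine kinases, held a peak in a first intron of 34095 bp with ranks 115 and 194. A peak at 18783662 on 3L lay inside both ftz-f1, a nuclear receptor gene, and the non-coding gene lncRNA:CR45939, at ranks 142 and 129. The coactivator gene tai, Taiman, which works with the ecdysone receptor and is needed for border cell migration in the ovary, held a peak 28885 bp from the nearest TSS with ranks 116 and 253. The nuclear RNA-binding protein gene spen had ranks 125 and 255, and simj, whose product is the p66 subunit of the NuRD complex, 256 and 176.

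Others of these 20 lay in genes of the cytoskeleton, membranes and signalling. Tm1, a tropomyosin gene, ranked 272 in replicate 1 and 97 in replicate 3. EDTP, a phosphoinositide phosphatase gene, ranked 233 and 140, and spin, a lysosomal transporter gene, 144 and 203. The kinase gene Sik3 had ranks 217 and 204, atos 243 and 167, and the zinc finger gene jim 328 and 172. Fas3, an adhesion molecule that marks follicle cell subsets in the ovary, ranked 301 and 195 with a peak in an intron of 62671 bp. The formin gene dia closed the set with ranks 227 and 269. The host gene had a promoter peak of its own in 19 of the 20, CG12769 being the exception, beside 625 of all 798 far intronic peaks (78.3%).

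Within introns, far peaks crowded towards start sites and into first introns. The intron sequence of the autosomes that could hold such a peak came to 36.0 Mb, with 22.2 peaks per Mb (95% Poisson interval 20.6 to 23.7) and 21.9 and 22.1 per Mb in the replicate 1 and replicate 3 lists. The median distance from the nearest TSS was 4319 bp (quartiles 2497 and 7834) and the farthest summit lay 29085 bp away. Density was 47.7 peaks per Mb from 1500 to 2000 bp, 32.9 from 2000 to 3000 bp, 31.2 from 3000 to 5000 bp, 23.2 from 5000 to 10000 bp, 16.8 from 10000 to 20000 bp and 2.74 beyond 20000 bp. In replicate 1 the nearest and farthest of these bands had 48.5 and 3.29 peaks per Mb, and in replicate 3 they had 45.8 and 2.88. Much of the sequence in the farthest band was pericentric, and without pericentric sequence and chromosome 4 that band had 8.98 peaks per Mb and the nearest 49.8.

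First introns held 536 of the 798 peaks, counting a summit that is in the first intron of any transcript. This is 67.2% (Wilson interval 63.8% to 70.3%), against 37.9% of the sequence that could hold a peak, and the share was 66.5% in the replicate 1 list and 68.5% in the replicate 3 list. The gap was seen in every band of distance. From 1500 to 2000 bp, 83.2% of peaks and 58.9% of the sequence were in first introns, and from 5000 to 10000 bp 60% of peaks and 41.6% of the sequence. From 10000 to 20000 bp the shares were 57.9% and 31.8%. Without pericentric sequence and chromosome 4, first introns held 67.3% of peaks and 43.6% of the sequence, a smaller gap. Per Mb of all eligible sequence, first introns held 39.2 peaks and other introns 11.7. These 2 densities were not recomputed without pericentric sequence. The median intron that held a peak was 11527 bp long, and the median summit lay 2435 bp from the nearest exon.

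**Figure D2:**
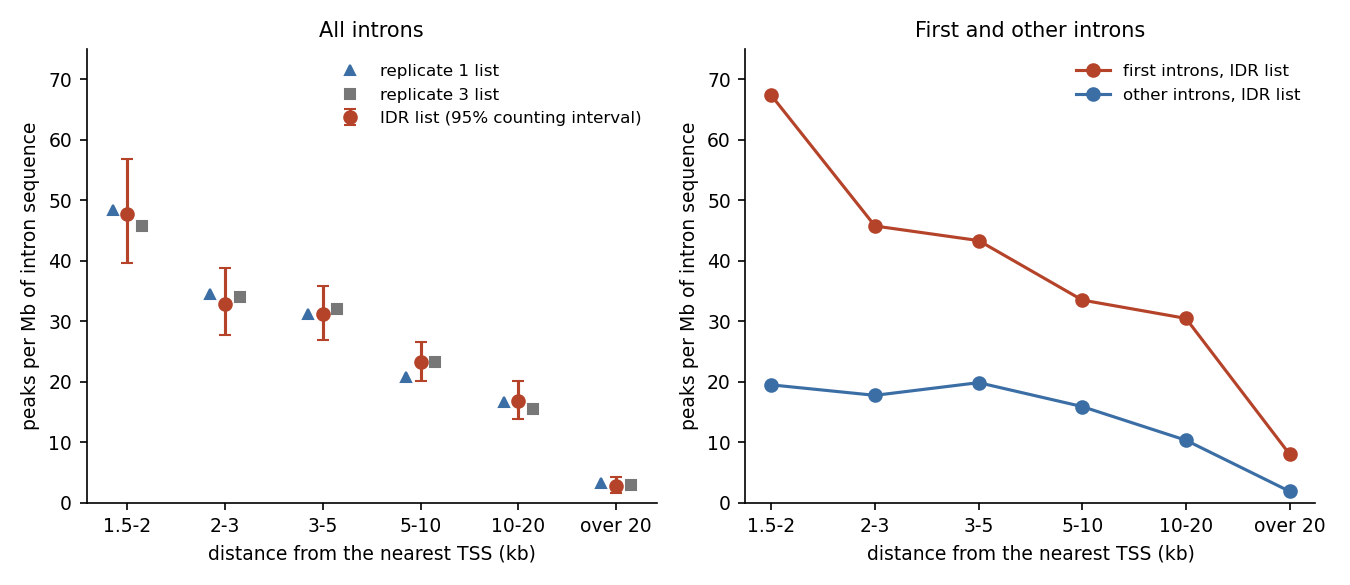
Far intronic peaks per Mb of intron sequence (y axes) by distance from the nearest TSS (x axes, in kb). The left panel gives the IDR list with 95% Poisson intervals, which cover counting only, beside the replicate 1 and replicate 3 lists, and the right panel splits the IDR peaks by first and other introns. Density is highest next to the 1500 bp limit, at 47.7 per Mb, and first introns lie above other introns in every band.

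The 3 peaks just inside the limit were in for, 1501 bp from a TSS with a signal of 129, SNF4Agamma, 1507 bp with 184, and bowl, 1508 bp with 142. Just outside it were gukh at 1496 bp with 318, CG10939 at 1495 bp with 344 and Gpdh1 at 1494 bp with 179. Transcript starts of the RefSeq annotation also had 0 of the 798 summits within 1500 bp. How far the annotations share transcript models was not examined, so this is not an independent check.

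Densities on the 4 large arms were close. Far intronic peaks numbered 244 on 3R, 212 on 3L, 173 on 2R and 169 on 2L, or 20.4, 24.2, 22.4 and 23.8 per Mb of eligible intron, with Poisson intervals that overlap. Chromosome 4, a small one, held 0 in 0.482 Mb of such sequence, which allows up to 6.22 per Mb if 0 is read as up to 3 counts, and up to 7.65 per Mb by the exact Poisson interval. It held 30 IDR peaks of other classes. Only 1 peak was pericentric, and 1 lay in an annotated transposable element. Soft-masked bases, which mark repeats and low-complexity sequence in the reference, covered 25.6% of the summits and 20.2% of positions 400 bp to the left.

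The genes around these peaks were mostly genes with a promoter peak as well. In all, 432 genes held a far intronic peak, 421 of them protein-coding and 11 non-coding. Of the 4343 autosomal protein-coding genes with intron sequence that could hold one, the 421 are 9.69%. A promoter peak, with its summit 250 bp or less from any of the gene's TSSs, was present in 300 of the 421, or 71.3% (Wilson interval 66.8% to 75.4%), against 1377 of the other 3922, or 35.1%, and 38.6% of all 4343. In the replicate 1 list the shares were 73.8% of host genes and 34.2% of the others, and in the replicate 3 list 68.8% and 34.0%. With a limit of 100 bp for a promoter peak the host share was 50.1%. The share of the other genes was not computed at that limit.

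The gap was also present among genes with similar lengths of eligible intron. Among the fifth of genes with the most eligible intron, 9529 bp or more, 69.8% of 265 host genes and 20.7% of 604 others had a promoter peak. In the next group, 2187 to 9507 bp, the shares were 72.4% of 127 and 31.4% of 741. Counted per gene, introns of genes with a promoter peak held 55.4 far peaks per Mb and introns of the remaining genes 7.28 per Mb. Host genes had a median of 2 TSSs and the others 1, and the part of that difference was not tested.

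**Figure D3:**
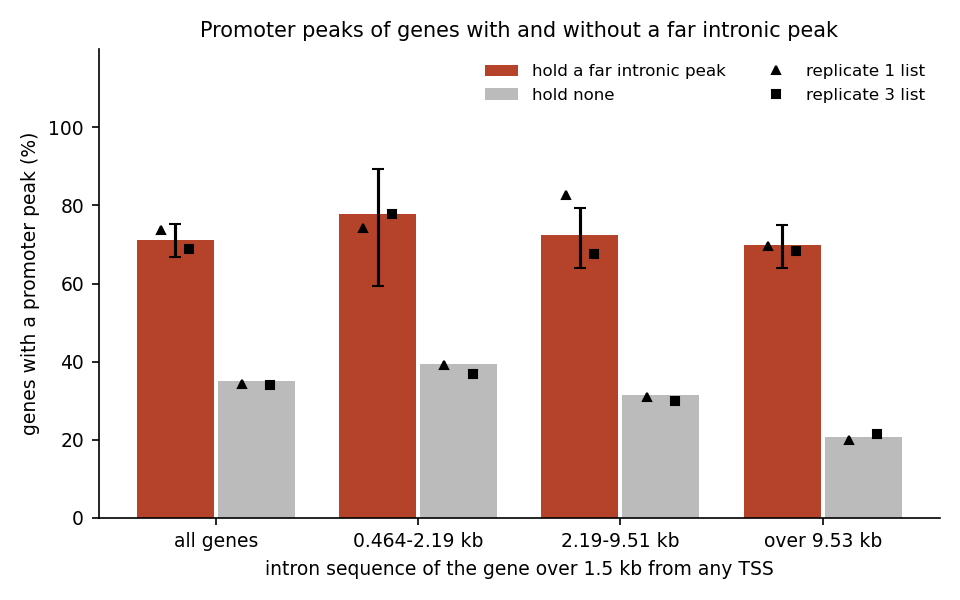
Share of genes with a promoter peak (y axis, percent) for autosomal protein-coding genes with a far intronic peak (red, with 95% Wilson intervals) and without one (grey), over all genes and in 3 groups by length of eligible intron sequence (x axis). Triangles and squares give the replicate 1 and replicate 3 lists. Red bars lie above 69% and grey bars below 40% in each group.

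Some genes held several far intronic peaks. Of the 421 protein-coding host genes, 232 held 1 peak, 101 held 2 and 88 held 3 or more. How these counts compare with those expected from intron length was not tested. A neighbouring IDR peak of any class lay within 2000 bp of 44.7% of far intronic peaks and 45.8% of intergenic peaks. The share was 40.02% of promoter, 59.7% of exonic, 64.9% of X intronic and 65.3% of near intronic peaks. The nuclear corepressor gene sbb, Scribbler, on 2R held the most, 14 peaks in 49.6 kb of eligible intron, with 12 in the replicate 1 list and 15 in the replicate 3 list. The gene tara followed with 10 in 26.6 kb (11 in replicate 1 and 10 in replicate 3). Some summits in a gene lay close together, such as those at 16250080 and 16250295 in tara, and were counted as separate peaks. Whether such pairs belong to the same enriched region was not tested. Eip75B and ftz-f1, nuclear receptor genes of the ecdysone cascade, held 9 and 8. The TSC-22 family gene bun held 8 in the IDR list but 5 in replicate 1 and 10 in replicate 3, and tai and simj held 7 each. PRAS40, whose product inhibits TORC1, held 7 in 12.6 kb in the IDR list, and the same rule gave 4 in each replicate's own list. The genes crp, pyd, Glut4EF and CG46467, which overlaps Glut4EF, also held 7 each.

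Nuclear receptor and ecdysone response genes often held far intronic peaks. Ecdysone is the steroid hormone of insects, which in the ovary times egg chamber development through the EcR receptor and early genes. Of 13 listed genes with eligible intron, 9 held a far intronic peak, with 31 peaks at 88.2 per Mb (95% Poisson interval 59.9 to 125), against 22.2 per Mb over all eligible sequence. Replicate 1 gave 82.5 per Mb and replicate 3 gave 91.1. The strongest were in ftz-f1 (signal 941), in Eip74EF, an ETS factor gene (389), and in Eip75B (350). Without Eip75B the list still had 80.8 peaks per Mb. Promoter peaks were present in 9 of these 13 genes, beside 38.6% of all 4343 genes. The part of this in the density was not tested.

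Chromatin and insulator genes had the highest density of the lists with over 0.1 Mb of eligible intron, 110 peaks per Mb (interval 67.9 to 168), from 21 peaks in 8 of 27 genes, and 131 per Mb in each replicate. Trl had a signal of 1313, tara 1000 and trx, the trithorax histone methyltransferase gene, 481. Of the 21 peaks, 10 were in tara, and without that gene density was 66.7 per Mb. In this list 77.8% of genes had a promoter peak, beside 38.6% of all 4343 genes. The part of this in the density of the list was not tested.

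Signalling and polarity lists also had densities above the 22.2 per Mb of all eligible sequence. For 1 of them the interval without its leading gene reached down to that level. All eligible sequence without pericentric sequence and chromosome 4 had 27.6 peaks per Mb. In each of these lists the interval without the leading gene included that value. The list densities were not recomputed on that sequence. The EGFR, insulin and JAK-STAT list had 65.7 peaks per Mb in 8 of 20 genes, with 61.6 in replicate 1 and 73.9 in replicate 3. Its strongest were in InR, the insulin receptor gene (549), aop, the ETS repressor gene also called yan (501), and aos, which encodes the EGFR inhibitor Argos (376). Without InR the density was 50.9 per Mb (interval 25.4 to 91.1). The BMP, Wnt, Hedgehog, Notch and Hippo list had 41.7 per Mb in 11 of 30 genes, led by fng, a glycosyltransferase gene that modifies Notch (528), mam, the Notch coactivator gene Mastermind (513), and shn, a zinc finger gene of the BMP pathway (494). Without shn, which held 6 of its 26 peaks, density was 33.9 per Mb, with an interval of 20.7 to 52.4 that includes the 22.2 per Mb of all eligible sequence. The mam peak ranked 608 in replicate 3 but 7795 in replicate 1. Polarity, cytoskeleton and follicle cell genes had 47.8 per Mb in 13 of 30 genes, led by jing (427), pyd, the ZO-1 gene (393), and the kinase gene msn (383). Without pyd they had 41.6 per Mb (interval 26.1 to 63.1). The gene jing was also in the chromatin list. Promoter peaks were present in 80% of genes in the EGFR list, 60% in the BMP list and 66.7% in the polarity list. This was beside 38.6% of all 4343 genes. Over all genes, introns of those with a promoter peak held 55.4 far peaks per Mb. The part of promoter peaks in these list densities was not tested.

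Other lists were lower or rested on few genes. Homeodomain and developmental transcription factor genes had 33.5 peaks per Mb in 10 of 38 genes, but 14 of the 34 peaks were in sbb, and without it density was 20.7 per Mb. After sbb its strongest peaks were in psq (350) and ken (319). Muscle genes had 37.6 per Mb from 7 peaks in 5 of 15 genes, among them Tm1 (926), Mef2 (374) and Zasp52 (273). Metabolic enzyme genes had just 0.0140 Mb of eligible intron, and their 4 peaks lay in FASN1, the fatty acid synthase gene, and Men, the malic enzyme gene.

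Lists of neuronal genes, which have long introns, held few far peaks per Mb. Axon guidance and cell adhesion genes had 8.38 per Mb (interval 4.02 to 15.4) from 10 peaks in 4 of 29 genes, with 5.86 in replicate 1 and 8.38 in replicate 3. Counted by gene the share was 13.8%, beside 9.69% of all genes, whose median length of eligible intron was far lower. Among the fifth of genes with the most eligible intron, 9529 bp or more, 30.5% held a far intronic peak. The median gene of the axon guidance list exceeded that limit, so by gene as well its share was below that of long genes. Of the 10 peaks, 4 were in Fas3, and the next hosts were Sema1a (281) and the netrin receptor gene fra (150). Ion channel and synapse genes had 2.21 per Mb from 1 peak, in Nmdar1 (signal 196), over 0.453 Mb. Promoter peaks were present in 8 of 29 and 1 of 20 genes of these lists, beside 38.6% of all genes. Germline and RNA regulator genes had 16.2 per Mb, with an interval of 9.92 to 25.1 that includes the 22.2 per Mb of all eligible sequence. Far peaks were in 6 of 29 of these genes (20.7%, beside 9.69% of all genes, not matched for length of eligible intron). A promoter peak was present in 62.1% of the 29. The strongest far peaks were in the translational repressor genes brat (383) and pum (317) and in shep (332).

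**Figure D4:**
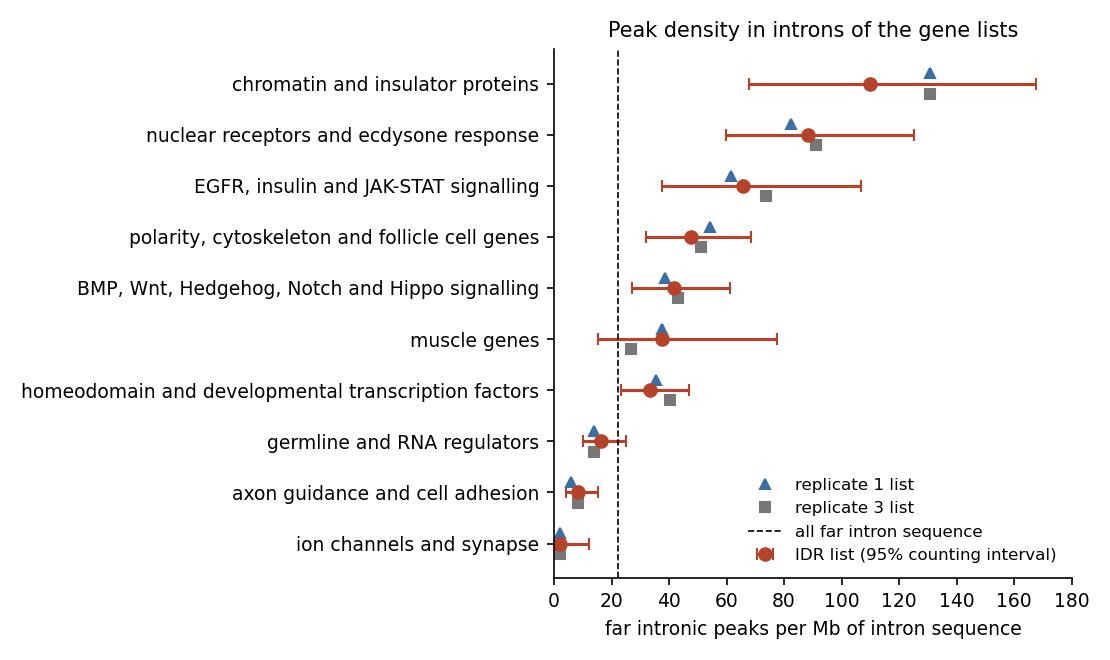
Far intronic peaks per Mb of eligible intron sequence (x axis) for 10 gene lists (y axis), with 95% Poisson intervals for the IDR list and points for the replicate 1 and replicate 3 lists. The dashed line marks 22.2 per Mb over all eligible sequence. Chromatin, nuclear receptor and signalling lists lie to the right of it, and ion channel and axon guidance lists to the left.

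The sequence at far intronic summits was richer in A and T than its surroundings. Windows of 201 bp at the summit were 63.1% A and T on average, against 59.4% in windows centred 400 bp to either side. Near intronic summits had 63.2% and promoter summits 60.3%. A panel of 40 motifs, searched on both strands, was compared between the summit window and the left flank by the exact McNemar test (two-sided), adjusted by Benjamini-Hochberg over the panel and 6 peak classes. In far intronic peaks, TATAAA alone passed, in 34.1% of summit windows and 24.8% of left flanks (exact adjusted p = 0.000788), with 24.6% in right flanks. Over all 240 comparisons 6.67% were higher at the summit. The motif also passed in near intronic (31.0% against 23.7%), X intronic (31.2% against 23.1%) and promoter peaks (28.6% against 20.9%). In the replicate 1 list it stood at 32.4% against 26.4% and did not pass, and in replicate 3 at 33.4% against 25.97%, where it passed. The share of A and T moves with it, and its part in the result was not tested.

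No motif was lower at far intronic summits by that test, with 1 at an unadjusted p under 0.05 (TEAD, GGAATG, 6.27% against 9.77%) and 4.17% of the 240 comparisons lower. GAGAGAG, the site of the GAGA factor, was at 7.77% against 5.14% (exact adjusted p = 0.196). The A tract, AAAAAAAA, was at 22.1% against 17.0% (exact adjusted p = 0.0953).

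Motifs of promoters were less frequent under far intronic peaks than under promoter peaks. Summit windows were compared between classes by Fisher's exact test (two-sided, adjusted over 40 motifs and 4 classes), in which 4.38% of 160 comparisons were lower in far intronic peaks and 5% higher. TATCGATA, the DRE site of Dref, was in 0.501% of far intronic and 10.1% of promoter windows (exact adjusted p = 9.28e-26). CGATA, the core word of BEAF-32 sites, was in 20.3% and 43.3% (exact adjusted p = 8.04e-34), and in far intronic peaks its left flank share was 19.4%. GGTCACACT, Motif 1 of M1BP, was in 0 of 798 far intronic windows, which allows a share of up to 0.376% if 0 is read as up to 3 counts, and in 5.41% of promoter windows (exact adjusted p = 3.01e-16). CAGCTG was in 7.27% and 15.8% (exact adjusted p = 6.63e-10), AGGGCTG of ZIPIC in 1.13% and 3.96%, and CGGACGT, a DPE word, in 0.251% and 1.41%.

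Of the words higher in far intronic than in promoter windows, AAAAAAAA was in 22.1% and 11.0% (exact adjusted p = 8.61e-14). Left flanks differed as well, with this word in 17.0% and 9.81%, and were 59.4% and 56.3% A and T. The part of such regional composition in these differences was not tested. The site of GATA factors, TGATAA, was in 20.1% and 13.9% (exact adjusted p = 0.000467), though in far intronic peaks its share at the summit was not separable from that of the left flank (17.9%, exact McNemar adjusted p = 0.705). TATAAA was in 34.1% and 28.6% (exact adjusted p = 0.0330), and in 24.8% and 20.9% of left flanks. The Runt factor word AACCACA was in 3.88% and 2.06% (exact adjusted p = 0.0475). Against near intronic peaks the site of the SMAD proteins Mad and Medea, GCCGNC, was higher, in 18.9% and 12.6% (exact adjusted p = 0.0143), and likewise against X intronic peaks at 12.4% (exact adjusted p = 0.0165). In far intronic peaks that site was in 18.4% of left flanks, whereas in near intronic peaks the left flank had 21.95%. The A tract was also higher than in near intronic (14.6%) and intergenic windows (15.5%), whose left flanks had 13.6% and 12.8%. The su(Hw) core, TGCATACTT, was lower than in intergenic windows, in 0.627% and 3.05% (exact adjusted p = 0.0143). Of all 160 comparisons 15 passed, with 7 in the replicate 1 list and 11 in the replicate 3 list.

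**Figure D5:**
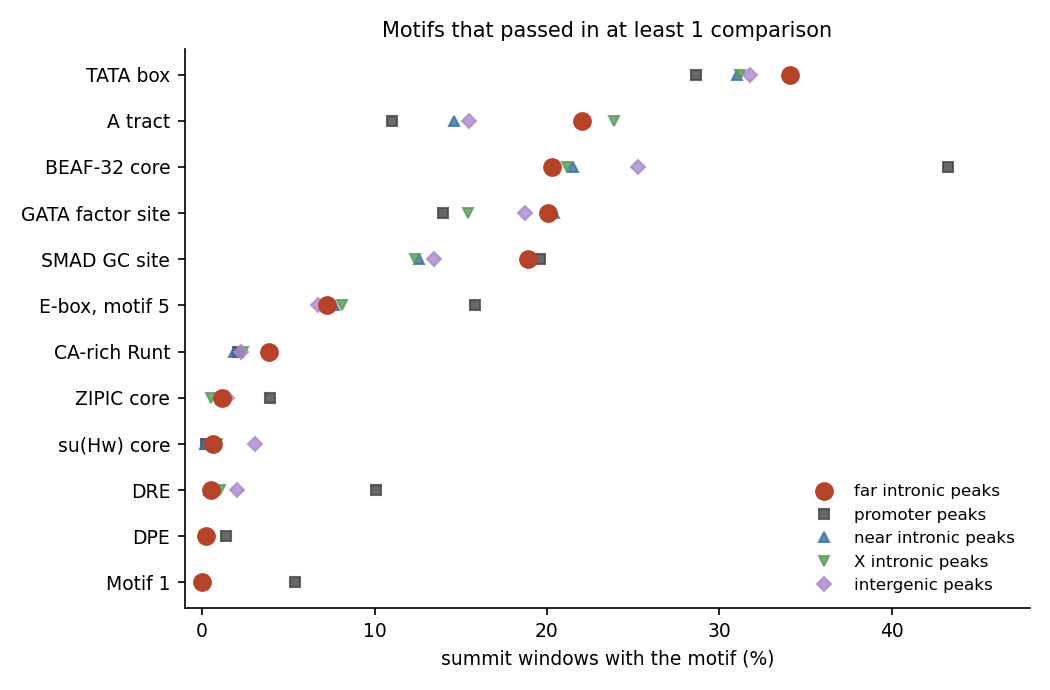
Share of summit windows with each motif (x axis, percent) in far intronic peaks (red) and 4 other classes, for the 12 motifs that passed in at least 1 comparison (y axis). Promoter peaks stand apart for the BEAF-32 core, the E-box, the DRE and Motif 1, and for these 4 motifs far intronic peaks lie near the near intronic and X intronic peaks.

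Words of 7 bases gave the same division. The 20 words with the largest excess at summits of all other IDR peaks were measured in far intronic peaks, and 9 (45%) were higher there than in the left flank by the exact McNemar test (adjusted over the 20). All 9 held A and T alone, such as AAATAAA in 37.7% of summit windows and 22.1% of left flanks (exact adjusted p = 5.28e-11). ATCGATA, the leading word of the other peaks, was in 1.13% and 2.38% (exact adjusted p = 0.145). When words were ranked in far intronic peaks of chromosome 2 and measured in the 456 of chromosome 3, 12 of 20 (60%) were higher. These were A-rich, among them AAGAAAA in 21.5% of summit windows and 9.87% of left flanks (exact adjusted p = 7.74e-06) and ACAAAAA in 27.6% and 13.6% (exact adjusted p = 1.77e-06).

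A word with G and C was more frequent at summits than in either flank, in far intronic peaks and in every other class measured. In the 1296 near intronic and X intronic peaks, words of 8 bases with at least 3 G or C were ranked by their excess at the summit over both flanks, and 8 of the leading 10 held ACAGTG or its reverse complement CACTGT. All 8 were also more frequent at far intronic summits than in either flank. CACAGTGG was in 3.51% of far intronic summit windows, 0.877% of left and 0.752% of right flanks, and in 1.77%, 1.01% and 0.807% of the same windows of promoter peaks. The 6 bases ACAGTG were in 16.04% of far intronic summit windows, 6.64% of left and 8.52% of right flanks. In the replicate lists the summit and left flank shares were 14.8% and 6.34% (replicate 1) and 16.1% and 6.02% (replicate 3). The word was at the summit of 118 of 590 X intronic peaks, and in 17.3% of summit windows in exonic, 16.6% in near intronic, 13.6% in promoter and 11.2% in intergenic peaks. The left flank shares of these 4 classes were 8.81%, 7.79%, 8.51% and 8.96%. Counted by distance from far intronic summits, the word occurred 52 times within 50 bp, 93 times from 50 to 100 bp, 56 times from 100 to 150 bp, and between 25 and 57 times in each further step of 50 bp out to 550 bp. The word was chosen after its values were seen, so these shares carry no test.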

How the data were processed

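Ovaries of 1 transgenic line were profiled by ChIP-seq in 2 replicates of 1 group, whose spread may be technical. Per the file headers, the deposited lists were called by the authors for each replicate and for both pooled against a control, and the IDR list was made from these. Peak caller and aligner were not given in the sources used here. Signal values, as deposited by the authors with no scale stated, served only to rank and describe peaks. The deposited −log10 q-value was not used. Read totals, and so depth and its precision, are unknown.

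Summits were placed with the Ensembl release 115 annotation of Release 6 (dm6), leaving out transposable elements. Matches were within 100 bp, promoters within 250 bp and summit windows 100 bp each side. Pericentric sequence began at 22 Mb of 2L and 23 Mb of 3L, and ended at 5.4 Mb of 2R and 4.2 Mb of 3R. Python 3.11.15, pandas 2.3.3, numpy 2.4.6, scipy 1.17.1 and matplotlib 3.10.9 were used. Only the motif tests were checked on simulated windows, which all had the same base composition. That check could not show calls made by a difference in A and T between windows. Intervals are Wilson for shares and exact Poisson for densities, at 95%, and cover counting only. They treat summits that lie close together in a gene as independent, which was not tested. Densities and host shares were described without a test. Of 360 entries in 11 lists, 358 matched (Dl and nos did not), and 264 genes were autosomal with eligible intron. The gene jing was in both the chromatin and the polarity list, so its peaks count in both densities.

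Named are the 20 strongest peaks found in both replicates, of which 1 is not reported here, 8 genes with most peaks (with 7 peaks, the 3 of highest signal and, after their values were seen, the 4 tied with them) and up to 3 genes per list. Peaks and lists were chosen with earlier results of these data known. No comparison with other GFP fusions was made.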

Additional observations from a re-analysis of the deposited data

How the results depend on the processing

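Counts and shares were recomputed under 69 changes, of which 37 stayed within the interval, or within 1.5 times for counts, and 32 did not. Reversal of a direction was checked only for the share of pooled peaks kept, where it did not occur. Of the classes that differed in replicate support (2), 4 differed with protein-coding TSSs, 1 at over 1000 bp and 0 at over 3000 bp, among the 3361 strongest peaks or at 50 or 250 bp. Support itself was 73.4% at 50 bp, 99.6% at 250 bp and 98.6% among the strongest 3361. Those held 351 far intronic peaks, 9.75 per Mb, with 70.9% in first introns, 53.6% of hosts with a promoter peak, 0 motifs higher at the summit and 7 differing between classes. Beyond 3000 bp density was 18.3 per Mb, the first intron share 61.3% (33.7% of sequence), and 2 and 8 motifs passed. Density was 25.7 per Mb beyond 1000 bp, 24.4 with transposable elements as genes (added after seeing the data) and 27.6 without pericentric sequence. Hosts with a promoter peak were 50.1% at 100 bp and 76.0% at 500 bp. The share of other genes was not computed at those limits or among the strongest 3361. Motifs higher at the summit (1) numbered 0 and 9 differed between classes with 50 bp windows. They numbered 2 with 150 bp windows or protein-coding TSSs, 3 against flanks at 800 bp and 4 against right flanks (added later). On single replicates the counts were 789 to 797 peaks, 66.5% to 68.5% in first introns, 68.8% to 73.8% of hosts with promoter peaks, 21.9 to 22.1 per Mb, 0 to 1 motifs at the summit and 7 to 11 between classes. The share of pooled peaks kept stayed at 11.8% to 11.9%. No paired analysis was possible because there was 1 group. Depth is unknown, and the fusion could not be set against untagged or other GFP flies.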

Other observations

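Among words not in the panel, CACTGAGA was in 21 of the 798 far intronic summit windows (2.63%), against 0.125% of left and 0.376% of right flanks. In the replicate 1 list the summit and left flank shares were 2.66% and 0.127%, and in replicate 3 they were 2.51% and 0.376%. Near intronic summits had 2.41%, intergenic 2.04%, X intronic and exonic 1.69% each and promoter summits 0.703%. Left flanks had 0.567% in near intronic, 0.407% in intergenic, 1.02% in both X intronic and exonic and 0.364% in promoter peaks. Right flanks had 0.992% in near intronic, 0.815% in intergenic, 0% in X intronic, 0.339% in exonic and 0.494% in promoter peaks. The word was picked after its values were seen, and no test was made.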
